A study of Mus musculus with 6 samples.

Results

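The genes described here encode integrins and cell-cell adhesion molecules: the integrin subunits Itgb5, Itga6, Itga3 and Itga4, the immunoglobulin-like molecules Alcam and Ncam1, the cadherin Cdh13 and the connexin Gjb2. They are 8 of the 3549 genes that a supplementary table of the study gives with a fold change between the mouse lines B16 (melanoma) and melan-a (melanocytes). That table names no probe and the array files name no gene. A probe was therefore taken as a candidate for a gene when its mean ratio over the arrays matched the listed fold within 0.00051. This gave 15 candidate probes of the 41174 probes on the array. The 6 genes Itgb5, Itga6, Itga3, Alcam, Cdh13 and Gjb2 had 1 candidate each and are called single-probe genes below, while Ncam1 had 3 candidates and Itga4 had 6. Over all listed genes the median number of candidates was 5, and 497 genes had 1. Because the mean ratio of B16 to melan-a chose the probes, that ratio is given for these genes as a description without a test.

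B16 cells are a melanoma line, and melan-a cells are partially immortalized melanocytes that form no tumors. Both come from C57/Bl6 mice. B16 cells grew in DMEM with bovine calf serum, and melan-a cells in RPMI with fetal bovine serum and a phorbol ester, so that cell line and culture medium cannot be told apart. RNA of both lines was hybridised together on 6 Agilent mouse arrays, each a separate biological replicate. Each kind of cell was thus represented by a single line. B16 RNA carried Cy3 on replicates 1, 3 and 5, and Cy5 on replicates 2, 4 and 6, with melan-a RNA in the other dye. The median summed signal of both dyes lay between 779.9 and 4307.5 on the 6 arrays. The ratios of different arrays correlated with r between 0.07 and 0.61 over all probes. The other 5 arrays were quantified on the same day and replicate 1 on a different one.

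Integrins are paired receptors of an alpha and a beta subunit that hold cells to the extracellular matrix and pass signals in both directions across the membrane. Alcam and Ncam1 bind neighbouring cells through immunoglobulin-like domains, and cadherins do so through calcium-dependent contacts. Connexins such as Gjb2 form the channels of gap junctions. In the skin, melanocytes sit on the basement membrane among keratinocytes and keep contact with both through molecules of these families.

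The genes at both ends of the range are shown with their promoters, Itgb5 as the largest fall and Gjb2 as the largest rise of the 8. Each sequence runs from 250 bases before to 50 bases after the gene's start in RefSeq (GRCm38.p6), 5′ to 3′, on the gene's own strand. Itgb5 lies at chr16:33829415-33829714 on the plus strand and Gjb2 at chr14:57104653-57104952 on the minus strand. Capitals mark GGGCGG, or CCGCCC where it lies on the other strand, the core of a GC box.
Itgb5: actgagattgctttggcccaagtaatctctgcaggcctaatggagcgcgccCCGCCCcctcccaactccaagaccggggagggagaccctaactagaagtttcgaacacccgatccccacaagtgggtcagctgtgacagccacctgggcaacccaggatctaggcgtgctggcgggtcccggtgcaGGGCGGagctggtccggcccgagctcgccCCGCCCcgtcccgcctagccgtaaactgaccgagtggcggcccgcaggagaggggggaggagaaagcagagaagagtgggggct
Gjb2: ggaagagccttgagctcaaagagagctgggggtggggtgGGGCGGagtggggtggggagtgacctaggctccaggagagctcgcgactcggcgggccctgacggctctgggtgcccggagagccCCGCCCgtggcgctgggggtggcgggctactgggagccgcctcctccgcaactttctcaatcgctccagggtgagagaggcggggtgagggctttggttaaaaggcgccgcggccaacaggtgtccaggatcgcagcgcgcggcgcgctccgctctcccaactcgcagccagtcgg
The GC box core stands 3 times in the Itgb5 window and 2 times in the Gjb2 window. RefSeq's promoter table matched 5 of the 8 genes, with 2 starts for Itga3, and the other matched genes were Itga4 and Alcam. All 6 of these windows held the GC box core on either strand, against 35.6% of 32817 mouse promoter windows of the same length. Their GC content lay between 52.3% and 70.0%, against a median of 52.7% for all windows. CATGTG, read on both strands, was present in 1 of the 6 windows (a start of Itga3) and in 14.2% of all windows. Neither CACGTG nor TATAAA was found on either strand in the 6 windows, against 7.15% and 13.6% of all windows. Such matches describe the letters of these windows only.

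Of the 8 genes, 6 were lower in B16 than in melan-a cells and 2 were higher. All ratios below are log2 of B16 over melan-a, so that a negative value means lower in B16. This is the inverse of the study's direction, which sets melan-a over B16. Itgb5 was 4.75-fold, Cdh13 2.86-fold, Itga6 2.67-fold, Itga3 2.36-fold, Alcam 2.31-fold and Ncam1 1.69-fold lower in B16 by the mean of the 6 arrays. Gjb2 was 6.59-fold and Itga4 2.29-fold higher. Where a gene had several features on the array, the study listed the one of largest fold. The study also lists a separate entry for neural cell adhesion molecule (Ncam), with a slightly larger fold in the same direction, which was not used here. Other probes of these genes, if any, are not named and could have smaller differences. Across all 39687 probes that could be tested, 6.31% were called higher and 5.23% lower in B16 (limma, adjusted p under 0.10 and fold over 1.5, 11.5% in either direction), and all 15 candidate probes were among them. On all 6 arrays, 14 of the 15 candidates had the sign of their mean, while 9.35% of all tested probes were above 0 and 7.4% below 0 on all 6. Since the same contrast chose these probes, nothing is read from either count. The median size of the mean log2 ratio was 1.33 over the 8 genes and 0.17 over all probes tested, and the median of all probes was −0.01.

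**Figure D1:**
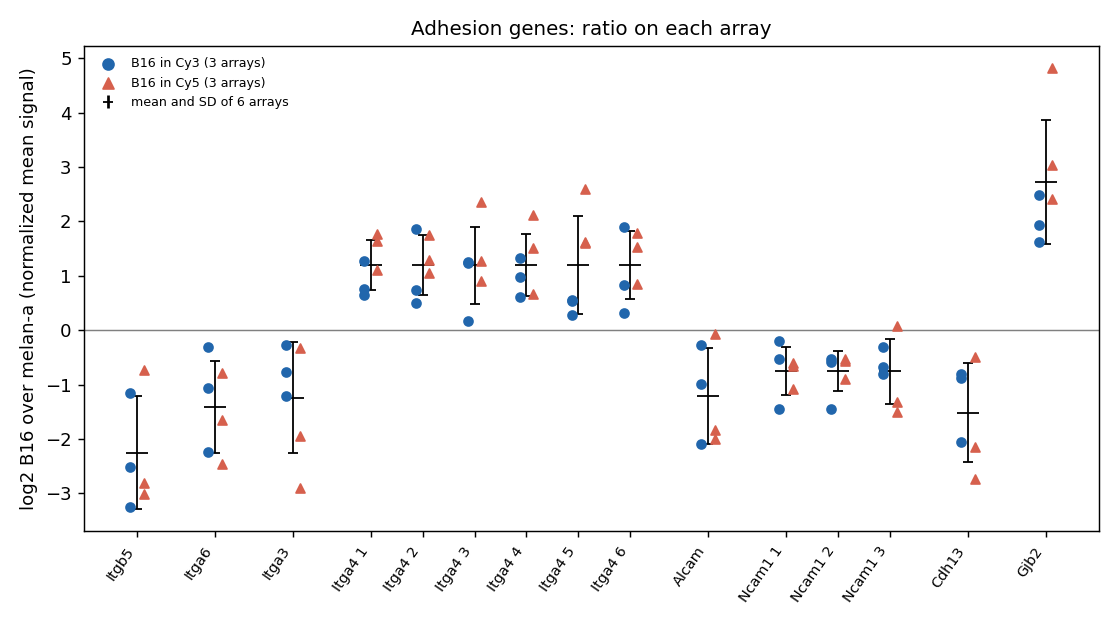
Log2 ratio of B16 over melan-a (vertical axis) on each of the 6 arrays for each candidate probe (horizontal axis). Circles are the 3 arrays with B16 in Cy3, triangles the 3 with B16 in Cy5, and bars give the mean and SD of 6 arrays. Itgb5 runs between −3.26 and −0.74 and Gjb2 between 1.61 and 4.82. Only 1 candidate of Ncam1 has arrays on both sides of 0.

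Itgb5 encodes the beta5 subunit, which pairs with the alphav subunit to bind vitronectin. Its ratio was −3.26, −3.01, −2.51, −2.82, −1.16 and −0.74 on replicates 1 to 6, with a mean of −2.25 ± 1.04 (SD, n = 6). Every array had it lower in B16, and replicates 5 and 6 stood apart with the smallest differences. Among the 5 single-probe genes that were lower in B16, Itgb5 had the most negative ratio on replicates 1, 2, 3 and 5, while Itga3 did on replicate 4 (−2.91) and Itga6 on replicate 6 (−0.79). Its ratio ranked between the lowest 0.0826% and the lowest 4.30% of all probes, depending on the array.

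The log2 signal of Itgb5 in B16 was 8.51, 9.17, 11.41, 11.28, 12.39 and 12.04 on replicates 1 to 6. In melan-a it was 11.77, 12.18, 13.92, 14.09, 13.56 and 12.77. The ranges of the 2 lines overlapped across arrays, which differ in brightness, but on each array B16 was the dimmer. Both lines were above the 95th percentile of the 814 empty and negative control spots of the same array and dye on all 6 arrays. Above the 99th percentile, B16 was left with 5 arrays.

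Itga6 encodes the alpha6 subunit of laminin receptors. Its ratio was −0.31, −1.65, −2.23, −2.45, −1.06 and −0.79 on replicates 1 to 6, with a mean of −1.41 ± 0.84 (SD, n = 6). All 6 arrays had it lower in B16, by least on replicate 1 and by most on replicate 4. Its log2 signal ranged between 9.14 and 11.96 in B16 and between 9.44 and 13.10 in melan-a. On replicate 1, where the ratio was smallest, the signals were 9.14 in B16 and 9.44 in melan-a, the lowest of each line.

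Itga3 encodes the alpha3 subunit, which pairs with beta1 as another laminin receptor. Its ratio was −0.77, −1.95, −1.21, −2.91, −0.26 and −0.33 on replicates 1 to 6, with a mean of −1.24 ± 1.03 (SD, n = 6). The gene was lower in B16 on all 6 arrays, but the values on replicates 5 and 6 were small and that on replicate 4 large. Without replicate 4 the mean was −0.90 (1.87-fold lower), and without replicate 2 it was −1.10 and the gene no longer met the call. The log2 signal was 9.94, 8.84, 10.75, 10.71, 11.65 and 11.05 in B16, against 10.71, 10.79, 11.96, 13.61, 11.91 and 11.38 in melan-a. The melan-a signal of replicate 4 was thus the highest of its line, while the B16 signal of that array was within the range of the others.

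Itga4 encodes the alpha4 subunit, whose receptors bind Vcam1 and fibronectin. Among the study's listed genes that received a symbol, it was the only integrin subunit higher in B16. Its probe could not be told from 5 others with the same mean ratio. All 6 candidates were above 0 on all 6 arrays, between 0.16 and 2.59, around the shared mean of 1.20. Their SD lay between 0.45 and 0.89, and the values by array cannot be assigned to the gene. In melan-a, 2 of the 6 candidates were below the 95th percentile of the empty and negative control spots on replicate 1. The other values of all candidates were above that percentile in both lines.

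**Figure D2:**
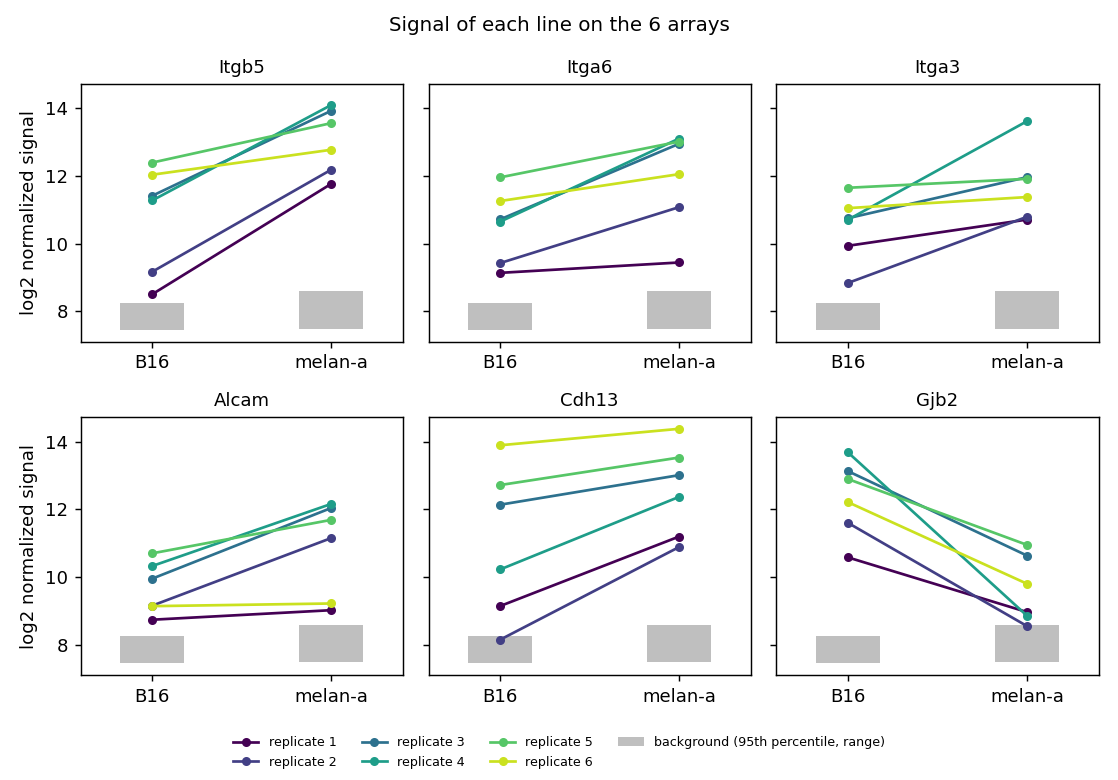
Log2 normalized signal (vertical axis) of the 6 single-probe genes in B16 and in melan-a, with a line for each array, coloured by replicate. Grey boxes span the 95th percentile of empty and negative control spots over the 6 arrays. Lines rise towards melan-a for Itgb5, Itga6, Itga3, Alcam and Cdh13, and fall towards melan-a for Gjb2. Each panel's probe has its own brightness, and panels are not compared in level.

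Alcam (CD166) binds itself and CD6 on other cells. Its ratio was −0.28, −1.99, −2.09, −1.83, −0.99 and −0.08 on replicates 1 to 6, with a mean of −1.21 ± 0.89 (SD, n = 6). It was lower in B16 on all 6 arrays, though on replicates 1 and 6 by little. The log2 signal was 8.74, 9.16, 9.96, 10.33, 10.70 and 9.14 in B16, against 9.02, 11.15, 12.04, 12.16, 11.69 and 9.22 in melan-a. The arrays with the smallest differences were the ones with the lowest melan-a signals. On replicate 1 neither line exceeded the 99th percentile of the empty and negative control spots.

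Ncam1 (CD56) is a homophilic adhesion molecule of neural cells and of several tumors. Its first candidate had ratios of −0.20, −0.67, −1.45, −1.09, −0.53 and −0.60 on replicates 1 to 6. The second had −0.53, −0.90, −1.45, −0.56, −0.58 and −0.53. The third had −0.30, −1.33, −0.68, 0.08, −0.81 and −1.50. All 3 shared the mean of −0.76, with SDs between 0.37 and 0.60, and the third was not lower in B16 on replicate 4. Ncam1 had the smallest fold of the 8 genes, and without replicate 2 or without replicate 6 only 2 of its 3 candidates met the call.

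Cdh13 (T-cadherin) is an unusual cadherin that is anchored to the membrane by a lipid and lacks a cytoplasmic tail. Its ratio was −2.05, −2.73, −0.87, −2.14, −0.81 and −0.49 on replicates 1 to 6, with a mean of −1.52 ± 0.91 (SD, n = 6). Replicates 1, 2 and 4 had ratios of −2.05 or below and replicates 3, 5 and 6 of −0.87 or above, with no array between. The log2 signal was 9.15, 8.15, 12.14, 10.23, 12.72 and 13.89 in B16, against 11.20, 10.89, 13.01, 12.37, 13.53 and 14.38 in melan-a. The 3 arrays with the smaller differences were the 3 with the highest signals in both lines. B16 exceeded the 99th percentile of the empty and negative control spots on 4 arrays.

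Gjb2 (connexin 26) forms gap junctions in epithelia and the inner ear. Its ratio was 1.61, 3.04, 2.49, 4.82, 1.94 and 2.41 on replicates 1 to 6, with a mean of 2.72 ± 1.14 (SD, n = 6). It was higher in B16 on all 6 arrays and had a percentile among all probes of 99.4 or more on each. Without replicate 4 the mean was 2.30 (4.92-fold higher). The log2 signal was 10.58, 11.60, 13.13, 13.68, 12.89 and 12.21 in B16, against 8.97, 8.56, 10.64, 8.86, 10.95 and 9.81 in melan-a. The signal in melan-a was above the 95th percentile of the empty and negative control spots on all 6 arrays and above the 99th on 5.

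These genes varied more between arrays than most probes. The SD of the ratio had a percentile among all tested probes of 98.9 for Gjb2, 98.2 for Itgb5, 98.1 for Itga3, 96.6 for Cdh13, 96.2 for Alcam and 95.2 for Itga6. The median SD of all tested probes was 0.34. Among probes whose mean had a similar size (within 0.25), the percentile was 60.0 for Gjb2, 67.7 for Itgb5, 73.1 for Itga6, 77.6 for Cdh13, 84.1 for Alcam and 92.4 for Itga3. The candidates of Itga4 lay between 23.2 and 84.9 among such probes, and those of Ncam1 between 23.5 and 65.0. The spread of all ratios differed between arrays too, with an SD of 0.80 on replicate 4 and of 0.49 and 0.48 on replicates 5 and 6. With the arrays scaled to one spread, the SD was 0.65 for Gjb2, 0.92 for Itgb5 and 0.72 for Itga3. Otherwise the part of array spread in these values was not tested.

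The ratios of the 6 single-probe genes did not all move together across arrays. Itga6 and Alcam were alike (Pearson r = 0.90 over 6 arrays), as were Itgb5 and Cdh13 (r = 0.84). Itga3 and Gjb2 had r = −0.90. Since Itga3 was below 0 and Gjb2 above 0 on every array, the sizes of their differences rose and fell together. Both had their most extreme value on replicate 4. Itga6 and Cdh13 had r = 0.19. These are 15 pairs over the same 6 arrays, which share dye, brightness and spread, and no test was made.

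The listed single-probe genes whose 6 ratios were most like those of each member were found among 353 genes with a symbol. For Itga3 these included Galnt10 (r = 0.99) and Ppp1r13b (r = 0.98). For Itga6 they were Axl (r = 0.99), a receptor tyrosine kinase that was lower in B16 by a mean log2 of −3.38, C1s1 and Ucma. For Itgb5 they were Map6 (r = 0.98), Ehd4 and Cmtm5, and for Alcam Dab2 (r = 0.97), Asb2 and Serpind1. For Cdh13 they were Myl3 (r = 0.99), S100a4 and Selenon. For Gjb2 they were Uchl1 (r = 0.97), Uhrf1 and Nme1, all 3 higher in B16. Taking the best of 353 genes over only 6 arrays gives a high r by selection. No test was made, and a shared regulation cannot be read from these values.

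The dye orientation was tested, since in a balanced dye swap it is independent of the mean ratio that chose the probes. The term tested is the deviation of the arrays with B16 in Cy3 from the mean over both labelings. No candidate was called (0 of 15 at an adjusted p under 0.10, limma), against 0.0403% of 39659 probes, and 3 of the 15 candidates had an unadjusted p under 0.05, as did 5222 of the 39659 probes, so nothing is read from these 3. Gjb2 averaged 2.02 ± 0.44 with B16 in Cy3 and 3.42 ± 1.25 with B16 in Cy5 (SD, n = 3 each), a term of −0.70 (SE 0.27, limma adjusted p = 0.329). For Itga3 the averages were −0.75 ± 0.47 with B16 in Cy3 and −1.73 ± 1.30 with B16 in Cy5, a term of 0.49 (SE 0.28, limma adjusted p = 0.486). The terms of Itgb5 (−0.06, SE 0.33), Alcam (0.09, SE 0.28), Itga6 (0.22, SE 0.26) and Cdh13 (0.27, SE 0.28) were no larger than their SE. The 3 candidates of Ncam1 had terms between −0.10 and 0.16. The 6 candidates of Itga4 all had negative terms, between −0.74 and −0.16. One of them had ratios of 0.55, 0.28 and 0.54 with B16 in Cy3 and of 1.62, 2.59 and 1.61 with B16 in Cy5, groups that did not overlap (limma adjusted p = 0.214). A p that misses the threshold with 3 arrays of each labeling does not show that the labelings gave the same ratio.

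Other adhesion genes were looked up in the same table by 6 family lists. Only 2344 of its 3549 entries received a symbol, and a gene is called listed below if it was found among these. A gene called not listed may thus be among the other entries. Of 156 genes in the lists, 43 were listed, and 36 of these were lower and 7 higher in B16. Without the 8 genes above, 30 were lower and 5 higher. Of all 2320 listed genes with a symbol and a candidate probe, 1008 (43.4%) were lower and 1312 higher in B16. Without the protocadherins, whose list was defined by being listed, 35 of 148 genes were listed (23.6%), against 10.5% of 21900 protein-coding genes in RefSeq, not all of which need have a probe. Itgav and Cdh2 received their symbols by description, and no gene outside the adhesion lists did. The shares were thus not made quite alike. The study chose the listed genes on these same arrays, which makes these counts no independent support for any direction. An unlisted gene has no named probe and no value here.

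Among integrin subunits 7 of 26 were listed, 6 lower and 1 higher in B16. Every candidate of these 7 was called, against 11.5% of all tested probes. The same contrast chose the listed genes and their candidates, so nothing is read from that count. Itga9, which binds tenascin-C, had a mean log2 ratio of −1.33 (2.52-fold lower) and was lower on 5 of 6 arrays, the exception being replicate 4 (0.47). Itgav, the usual partner of Itgb5, had −0.83 (1.77-fold lower) and was lower on 5 of 6 arrays, the exception being replicate 1 (0.195). On replicate 1, Itgb5 had its most negative value. Neither Itgb1, the usual partner of Itga3, nor Itgb4, a partner of Itga6, was found among the entries with a symbol.

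Integrin partners and adhesion complex genes were listed for 11 of 35, with 10 lower and 1 higher in B16. The largest mean ratio among those with 1 to 3 candidates was that of the tetraspanin Cd9, which associates with integrins in the membrane, at −3.24, −2.77, −3.76, −1.95, −1.56 and −1.16 on replicates 1 to 6 (mean −2.41, 5.30-fold lower). Like Itgb5, it had its smallest differences on replicates 5 and 6. The syndecan Sdc4, a proteoglycan of focal adhesions, was 2.99-fold lower (mean log2 −1.58). The tetraspanins Cd151 (−1.14) and Cd81 (−1.04), the syndecan Sdc2 (−1.31), the kinase Ptk2b (−1.23) and the integrin-associated Cd47 (−0.72) had 2 or 3 candidates each. Not every candidate of Cd47 was called.

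The cadherin and catenin list had 5 of 31 genes listed, 4 lower and 1 higher in B16. Beside Cdh13, Ctnnbip1, an inhibitor of beta-catenin, had −0.99 and Ctnnal1 had −0.75. The gene on the higher side was Cdh2 (N-cadherin), with 11 candidates that were not all called. All 8 clustered protocadherins found by symbol in the table were lower in B16, a list defined by being listed. Pcdhga7 was 4.37-fold lower (−2.13), Pcdha9 2.67-fold lower (−1.42) and Pcdhb22 2.58-fold lower (−1.37), each on 6 of 6 arrays.

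Of 37 immunoglobulin-like molecules 10 were listed, 7 lower and 3 higher in B16. Every candidate was called for 6 of them, against 11.5% of all tested probes. Nothing is read from that count either, since the same contrast chose these probes. Jam2, a junctional adhesion molecule, was 4.10-fold lower (−2.04), with −0.96 on replicate 1 and −3.40 on replicate 2. Nectin1 (−1.16), Boc (−1.01), Jam3 (−0.88) and Vcam1 (−0.83) had 2 or 3 candidates, and those of Vcam1, the ligand of alpha4 integrins, were not all called. Of 19 connexins only Gjb2 and Gja3 were listed. Gja3 was on the lower side (−0.92), and its 5 candidates were the same probes as those of Vcl, since both genes are listed with the same fold.

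**Figure D3:**
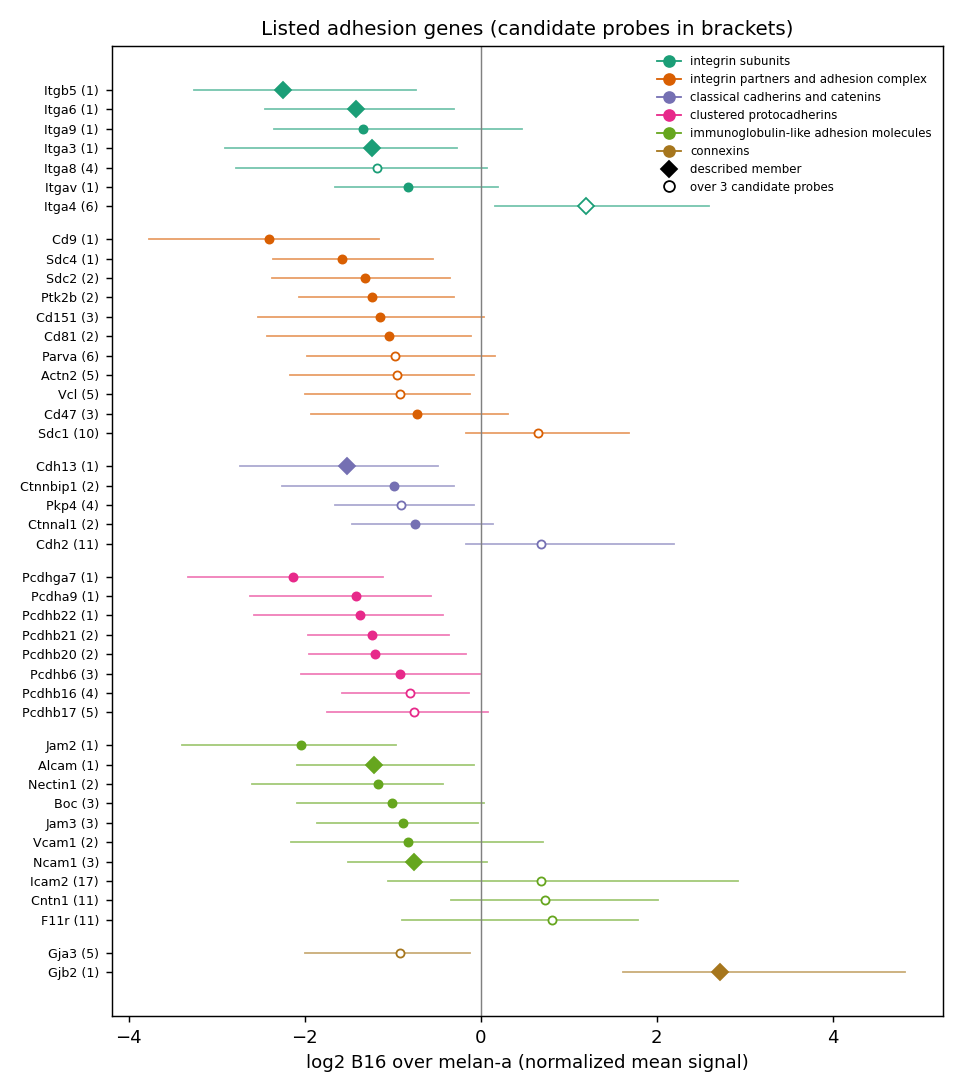
Mean log2 ratio of B16 over melan-a (horizontal axis) for each listed adhesion gene (vertical axis), with the lowest and highest array of any candidate as a line. Diamonds are the 8 genes described, circles the other 35, open symbols genes with over 3 candidates, and the number in brackets is that of the candidates. Of the 43 genes, 36 lie left of 0 and Gjb2 lies farthest to the right at 2.72.

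Markers of cell types were looked up in the same way, and their part in the values above was not tested. Of 12 melanocyte genes 3 were listed. Oca2, a melanosome membrane protein, was 5.86-fold lower in B16 by its mean (−2.55), with ratios between −4.94 and 0.06. Kit, the receptor of stem cell factor, was 1.85-fold lower (−0.89), while Gpnmb was on the higher side (1.06, 4 candidates). Of 8 fibroblast genes only the collagen Col1a1 was listed, 7.18-fold lower in B16 (−2.84), and its ratios ranged between −5.57 and −0.83. Of 5 endothelial genes only Kdr was listed (−0.75, 7 candidates), and none of 6 keratinocyte and 6 leukocyte genes was. The levels of the unlisted markers are not given here.

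The probe of each single-probe gene was close to the next probe in fold. Expressed as melan-a over B16, the nearest probe outside the match had 4.73 for Itgb5 against 4.75 for its candidate. For Alcam the next probe had 2.314 against 2.313, and for Gjb2 0.155 against 0.152. Apart from Itgb5, the names of the single-probe genes rest on the third decimal of the fold or later ones.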

How the data were processed

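Each of the 6 arrays held RNA of B16 and of melan-a cells in opposite dyes. Per the file headers, the authors quantified them with ImaGene 6.0.1 and deposited log2 signals of each dye after a global lowess normalization (smoothing 0.2) without background correction. Signals were read by the dye named in each header, since replicate 3 lists Cy5 first, and turned to B16 over melan-a by the labels. The series matrix holds these ratios in the inverse direction, as melan-a over B16, with the columns of replicates 4 and 5 exchanged. The array files were used. Of 44290 spots 41534 were probe spots and 2756 control spots. Spots of the same probe were averaged, a summed signal over 400 was required of each spot, and a probe needed 3 of 6 arrays. Between 81.6% and 100.0% of probe spots passed, depending on the array. The number of arrays limits the precision.

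The table of fold changes, given by the authors for called genes, served only to name probes. Of the 3549 listed genes, 2344 received symbols from the RefSeq gene table, by accession (2283), symbol (35), synonym (24) or description (2). Genes named in the text are the 8 genes with all candidates, listed genes of the adhesion families with values for those with 1 to 3 candidates, the listed genes of the cell type marker lists, and the 3 genes most alike to each single-probe gene, of which 1 is not reported here. The names Cdh2, Gja3 and Vcl, with over 3 candidates, and the unlisted Itgb1 and Itgb4 were added after their values were seen. Genes and lists were chosen with earlier results of these data known. All probes were fitted with limma 3.58.1 (R 4.3.3) as a one-class model in place of one-class SAM, and with a dye orientation term, with Benjamini-Hochberg adjustment over all probes. A probe was called at an adjusted p under 0.10 and, for B16 against melan-a, a fold over 1.5. The script was tested on simulated data. Tables were made in Python 3.11.15 (pandas 2.3.3, numpy 2.4.6, scipy 1.17.1) and figures with matplotlib 3.10.9. Background correction by normexp was not possible without background columns.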

Additional observations from a re-analysis of the deposited data

Results flagged for a closer look

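Of 45 groups of 6 array values examined for the 15 candidate probes (ratio, B16 signal and melan-a signal), 1 held a value far from the others. For a candidate of Itga4 (A_51_P451106) the melan-a log2 signal was 9.74 on replicate 5, and the nearest other array had 8.44. The gap was 0.657 of the whole range. Chance alone sets apart about 1 in 20 such groups. Replicate 5 also had the highest median summed signal of the 6 arrays (4307.5).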

How the results depend on the processing

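The mean ratio of each of the 8 genes kept its direction, and moved by less than its SD between arrays, in all 101 recomputations. These used median signals, no limit on the summed signal, centred or scaled arrays, only spots with a flag of 0 where any were left, the series matrix, arrays left out in turn, and an alternative chosen after seeing the data, in which the level of empty spots was subtracted with an offset of 50. That subtraction gave −2.47 for Itgb5 and 3.01 for Gjb2. Some of the 101 recomputations could not have come out otherwise. Every candidate probe passed the limit on the summed signal on all arrays, and exchanged columns leave a mean over all arrays as it was. Leaving out a single array also cannot move a mean by as much as its SD between arrays. With arrays left out in turn, Itgb5 ranged between −2.55 and −2.05 and Gjb2 between 2.30 and 2.94. With median signals the match to the listed fold found no candidate for Itga6, Itgb5, Cdh13 and Gjb2. Leaving out spots with a non-zero flag, whose meaning the files do not give, gave 821 probes higher and 621 lower in B16, and no value for Itgb5, Cdh13 and Gjb2. Only 17.5% to 27.7% of probe spots had a flag of 0, depending on the array. With arrays left out in turn the counts of called probes ranged between 2011 and 2815 higher and between 1576 and 2235 lower. The 16 probes called for the dye orientation became 40 with the arrays scaled to one spread, 0 with flagged spots left out, 0 with the series matrix read by its column labels, and between 0 (without replicate 5) and 58 (without replicate 6) with arrays left out. Read by its column labels, the series matrix exchanges replicates 4 and 5, which have opposite labelings, so its orientation term mixes the labelings. The cause of the other changes was not tested. The orientation term of Gjb2, not called in any of these settings, was 0.25 with the series matrix read by its column labels. The ratio within an array already pairs both lines. Between the labelings, no paired analysis was possible because they share no replicate number. Above a stricter 99th percentile of the empty spots, 4 of the single-probe genes lost arrays in B16 and 2 in melan-a.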
